A study of Mus musculus with 18 samples.

Results

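The genes described here are *Osgin1* and 9 genes of the NRF2 pathway, 10 of the 21899 genes with an expression value. They were taken by name and are *Nfe2l2* and *Keap1* (the transcription factor NRF2 and its sensor), *Slc7a11*, *Gclc* and *Gclm* (glutathione supply), *Txnrd1* and *Srxn1* (repair of oxidized thiols), *Nqo1* and *Hmox1* (quinone and heme enzymes) and *Osgin1* (oxidative stress induced growth inhibitor 1). The choice used the rise of *Osgin1* in muscle, so the muscle values of the members are a description and carry no test. Each member was found once, and 9 of the 10 passed the filter on low values in each tissue. *Slc7a11* did not pass in any of them.

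RNA was sequenced from liver, epididymal white adipose tissue (eWAT, labelled WAT) and quadriceps muscle of wild-type male C57BL/6 mice aged 18 weeks. HSD mice had 12 weeks of a diet with 8% NaCl and of 0.9% saline to drink, and CON mice had chow and tap water. Each tissue had 3 CON and 3 HSD libraries from different mice, 18 libraries in all, and some mice gave more than 1 tissue. Values are FPKM, fragments scaled by the exon length of the gene and the total of the library, and the libraries held 7628071 to 16637489 fragments.

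NRF2, the protein of *Nfe2l2*, is bound by KEAP1 and passed to a CUL3 ubiquitin ligase for degradation. Electrophiles and oxidants modify cysteines of KEAP1, NRF2 then escapes, pairs with a small MAF protein and binds antioxidant response elements, short motifs near its target genes. The targets make glutathione, return thioredoxin and peroxiredoxin to their reduced forms, detoxify quinones and break down heme. NRF2 is controlled mainly as a protein, so its mRNA level is not a measure of its activity. *Osgin1* is known as a target of NRF2 that restrains growth and takes part in autophagy, and the liver is a tissue where it is abundant.

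The antioxidant response element has a core that is written TGACNNNGC. The 250 bases before the RefSeq start of a gene (GRCm38.p6) were searched for it on both strands. RefSeq windows were found for 8 members, with 10 windows between them, and not for *Hmox1* or *Gclc*. The core was in 3 of the 10 windows (30%), those of *Gclm*, *Nfe2l2* and 1 of 3 starts of *Txnrd1*, against 3338 of 32851 windows of all genes (10.2%) and 13 of 66 windows (19.7%) of the other pathway genes described below. A match of these letters is a description of the sequence and not a site.

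Windows of *Gclm* and *Txnrd1* are shown because they hold the core, and that of *Osgin1* because the gene leads the differences in muscle and its window has no match. Capitals mark the core, which lies on the opposite strand in both genes. Bases that GENCODE annotates as exon are left out at the ends. The *Gclm* stretch is chr3:122245307-122245556 on the plus strand, directly before the gene, and its core GCACCGTCA begins 134 bases before the start. The *Txnrd1* stretch is chr10:82859009-82859178 on the plus strand, inside the annotated gene, and its core GCTTTGTCA begins 92 bases before the start. The *Osgin1* stretch is chr8:119436897-119437117 on the plus strand, also inside the annotated gene, since GENCODE places an earlier start at 119434124. The core of *Nfe2l2*, TGACTCCGC, begins 240 bases before its start on chromosome 2 and is on the strand of the gene.
Gclm: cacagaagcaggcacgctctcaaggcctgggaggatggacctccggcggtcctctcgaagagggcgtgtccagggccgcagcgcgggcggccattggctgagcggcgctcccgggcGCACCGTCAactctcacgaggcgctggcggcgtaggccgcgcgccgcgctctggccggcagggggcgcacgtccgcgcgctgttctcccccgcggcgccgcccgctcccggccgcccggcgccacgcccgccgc
Txnrd1: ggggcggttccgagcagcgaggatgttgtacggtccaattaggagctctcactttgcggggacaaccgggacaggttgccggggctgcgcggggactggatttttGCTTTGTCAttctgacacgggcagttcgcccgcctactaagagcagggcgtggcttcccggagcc
Osgin1: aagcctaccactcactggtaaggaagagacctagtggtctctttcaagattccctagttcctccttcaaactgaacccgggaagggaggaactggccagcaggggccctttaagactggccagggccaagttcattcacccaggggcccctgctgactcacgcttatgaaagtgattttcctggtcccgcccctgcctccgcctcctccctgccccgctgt

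Of the 18 libraries, 3 stood apart from their group in tissue markers or mitochondrial share, and those of mouse CON16 in red blood cell markers. The eWAT library HS3W held all 13 markers of epididymal epithelium at 1 FPKM or more, with a sum of 20190 FPKM against 1.10 to 11 in the other eWAT libraries, and had the lowest sum of adipocyte markers (6446 against 15390 to 21050). The liver library CON16L held all 10 skeletal muscle markers, with a sum of 4734 FPKM against 2.54 to 6.90 in the other liver libraries. In the liver library CON14L, mitochondrially encoded genes took 60.8% of the fragments, against 15.4 to 44.4% in the other liver libraries, and the sum of hepatocyte markers was 12370 FPKM against 27080 to 63260. The sum of red blood cell markers was 5667 FPKM in CON16W against 243.3 to 744 in the other eWAT libraries. It was 5626 FPKM in CON16L against 236.6 to 842.3 in the other liver libraries. In muscle it was 965 FPKM in CON16M against 123.8 to 224.1. All 10 hepatocyte markers were at 1 FPKM or more in each liver library, and all 8 adipocyte markers in each eWAT library. The sum of skeletal muscle markers was at least 62750 FPKM in each muscle library.

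The levels of the members differed most between tissues. In CON mice *Osgin1* was at 118 ± 79.1 FPKM in liver (SD, n = 3), 4.90 ± 0.726 in eWAT and 3.50 ± 0.149 in muscle. Every liver library, of either diet, was at 63.0 FPKM or more, and every library of the other tissues was at 9.83 or less. On the log2(FPKM + 0.5) scale the difference of *Osgin1* from liver was -4.28 in eWAT and -4.70 in muscle (limma, adjusted p = 4.66e-06 and 5.26e-06). The order of eWAT and muscle was not resolved, with a log2 difference of 0.42 (adjusted p = 0.318) that turned to -0.47 with median-ratio scaling and -0.52 with quantile normalization.

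Both subunits of glutamate-cysteine ligase, the rate-limiting enzyme of glutathione synthesis, shared this order in CON mice. *Gclc*, the catalytic subunit, was at 86.1 ± 24.7 FPKM in liver, 12.2 ± 1.21 in eWAT and 4.48 ± 0.325 in muscle. *Gclm*, the modifier subunit, was at 32.8 ± 13, 8.88 ± 1.43 and 3.58 ± 0.154 FPKM. The log2 difference of eWAT from liver was -2.73 for *Gclc* and -1.75 for *Gclm*, and that of muscle from liver was -4.08 and -2.94 (limma, adjusted p at most 0.000321). The higher level in eWAT than in muscle, by 1.35 and 1.19, was called in FPKM as deposited, whereas it was 0.39 and 0.25 with median-ratio scaling and was not called.

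*Nqo1*, a quinone reductase, was highest in muscle, with 15.0 ± 2.28 FPKM in muscle, 5.04 ± 0.364 in eWAT and 3.08 ± 2.45 in liver of CON mice. Muscle was above liver by 2.42 and above eWAT by 1.48 on the log2 scale (limma, adjusted p = 0.0021 and 0.025), in the same direction under each scaling. The second of these calls is close to the threshold, since leaving out any 1 of 5 of the 6 eWAT and muscle libraries put its adjusted p between 0.0505 and 0.069. The difference of eWAT from liver was not called (0.94, adjusted p = 0.111), and it was -0.46 with median-ratio scaling, 0.24 without CON14L and 1.47, called, without CON16L. Liver *Nqo1* was spread widely and was highest in CON16L, at 5.48 FPKM, the library with skeletal muscle markers. The part of muscle tissue in this value was not tested.

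*Hmox1*, the heme oxygenase that opens the heme ring, was highest in eWAT. It was at 22.8 ± 3.44 FPKM in CON eWAT, 4.26 ± 1.13 in liver and 4.0 ± 0.509 in muscle, and the lowest eWAT library of either diet (8.64) was above the highest of the other tissues (5.76). Its log2 level in eWAT was above that of liver by 2.31 and above that of muscle by 2.37 (limma, adjusted p = 6.53e-06 and 1.00e-05), and the first was 0.74, under the fold threshold, with median-ratio scaling. Liver and muscle did not differ past the threshold, at -0.06.

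*Nfe2l2* itself was at 36.3 ± 13.9 FPKM in liver, 29.2 ± 1.34 in eWAT and 12.0 ± 1.16 in muscle of CON mice. Muscle was lower than liver by 1.49 (limma, adjusted p = 0.000892) and than eWAT by 1.26 (adjusted p = 0.0023). The difference from liver was -0.63 and not called in the 9 HSD libraries, and the difference from eWAT shrank to -0.26 and was not called with median-ratio scaling. *Keap1* was at 5.58 ± 0.883, 10.9 ± 0.399 and 11.5 ± 0.907 FPKM in liver, eWAT and muscle, and its differences from liver (0.92 and 0.98) were just under a log2 fold change of 1. The direction from eWAT to liver turned, to -0.64 with median-ratio scaling and -0.33 with quantile normalization, and muscle minus liver was 0.39 with median-ratio scaling, where *Keap1* was called lower in eWAT than in muscle (-1.03, limma adjusted p = 0.000157).

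*Txnrd1*, the cytosolic thioredoxin reductase, and *Srxn1*, the sulfiredoxin that repairs overoxidized peroxiredoxins, were the most even of the members. CON means of *Txnrd1* were 10.5, 13.7 and 12.0 FPKM in liver, eWAT and muscle, and those of *Srxn1* were 7.67, 14.2 and 9.26. With FPKM as deposited no difference of either gene was called, and the signs of all of them changed with median-ratio scaling. Over all genes tested, 69.4% were called between eWAT and liver, 50.1% between muscle and liver and 54.9% between eWAT and muscle, against 4, 5 and 5 of the 9 members. The median log2 difference of all genes was 1.36, 0.52 and 0.93 in these comparisons and -0.03, 0.08 and 0.07 after median-ratio scaling.

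**Figure D1:**
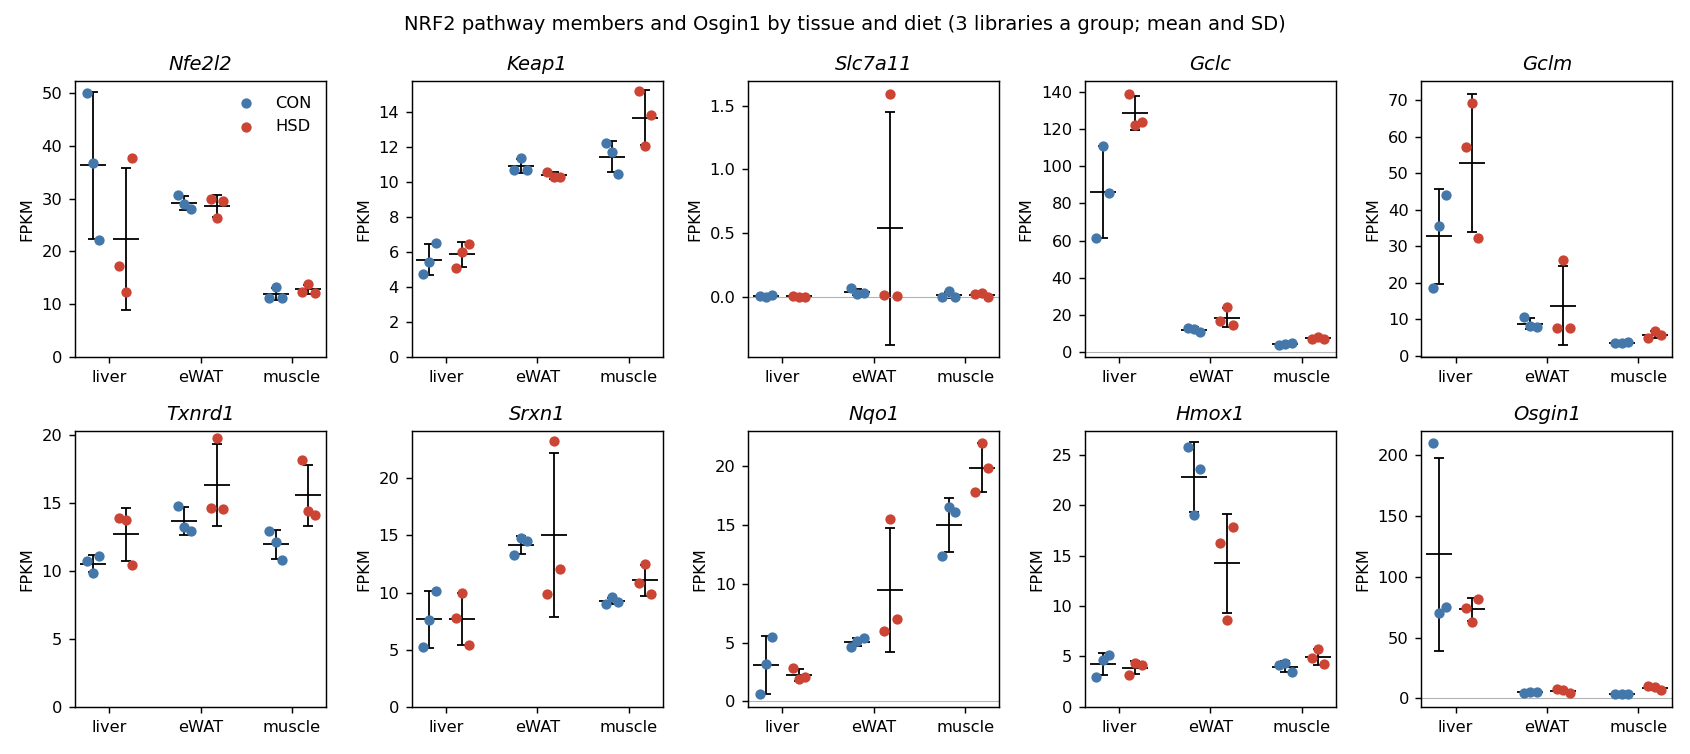
FPKM of the 10 members (each panel its own linear axis) in liver, eWAT and muscle. Points are single libraries of CON (blue) and HSD (red) mice, and bars give the mean and SD of 3 libraries. Osgin1, Gclc and Gclm are highest in liver, Nqo1 in muscle and Hmox1 in eWAT, and Slc7a11 is at 1.59 FPKM in 1 eWAT library (HS3W) and at 0.0672 or less in the others.

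*Slc7a11*, the cystine importer xCT, had almost no reads. The liver libraries held 0 to 2 fragments each and the muscle libraries 0 to 7. In eWAT there were 15, 5 and 6 fragments in CON and 3, 273 and 1 in HSD, and the 273 were in HS3W, the library with epididymal markers. Where a library held 0 fragments, 3 counts are the limit that such a count allows. No comparison between diets was made for this gene.

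In muscle the members lay higher in HSD than in CON mice. *Osgin1* was at 3.50, 3.35 and 3.64 FPKM in the CON libraries and at 9.83, 9.48 and 7.08 in the HSD libraries. The groups were far apart, with 106 to 124 fragments per CON library and 235 to 350 per HSD library. The ratio of the means was 2.52 and the log2 difference 1.21 ± 0.14 (SE), rank 10 among the rises of the 10834 genes tested, and over the alternatives tried it stayed between 1.09 and 1.35. Of all genes tested, 11 (0.102%) were called higher, by an adjusted p under 0.05 and a log2 fold change of at least 1, and *Osgin1* was the only member among them, as the choice of the members had fixed. It was not called with all tissues in 1 fit, with no filter on low values or without CON72M.

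The subunits of glutamate-cysteine ligase came next among the members. *Gclc* was at 4.13, 4.53 and 4.77 FPKM in CON and 7.32, 8.04 and 7.11 in HSD muscle, a log2 difference of 0.68 at rank 52. *Gclm* was at 3.45, 3.53 and 3.75 FPKM in CON and 4.90, 6.84 and 5.74 in HSD, a log2 difference of 0.62 at rank 72. In both genes each HSD library was above each CON library, so that both subunits of the enzyme were higher together.

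*Nqo1* was at 12.4, 16.5 and 16.1 FPKM in CON and 17.8, 22 and 19.8 in HSD muscle, *Txnrd1* at 12.9, 12.1 and 10.8 against 18.2, 14.4 and 14.1, and *Srxn1* at 8.99, 9.58 and 9.19 against 10.8, 12.5 and 9.86. The log2 differences were 0.40, 0.36 and 0.24. These groups did not overlap either, but their gaps were small beside the spread of the libraries. *Hmox1*, *Keap1* and *Nfe2l2* overlapped between the diets, with log2 differences of 0.27, 0.24 and 0.10.

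Counted together, 9 of 9 members had a log2 difference above 0 in muscle, where 39.2% of all genes did, and 6 of 9 were higher without overlap, where 6.72% of all genes were. The median of the members was 0.36 and that of all genes -0.06. Since the members were chosen with this contrast known, nothing is read from these counts. The sum of macrophage markers also differed in muscle, with 56.5 to 90.8 FPKM in CON and 40.6 to 44.0 in HSD libraries, and its part in the result was not tested. In bulk tissue, fewer cells of a type and less RNA per cell cannot be told apart.

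**Figure D2:**
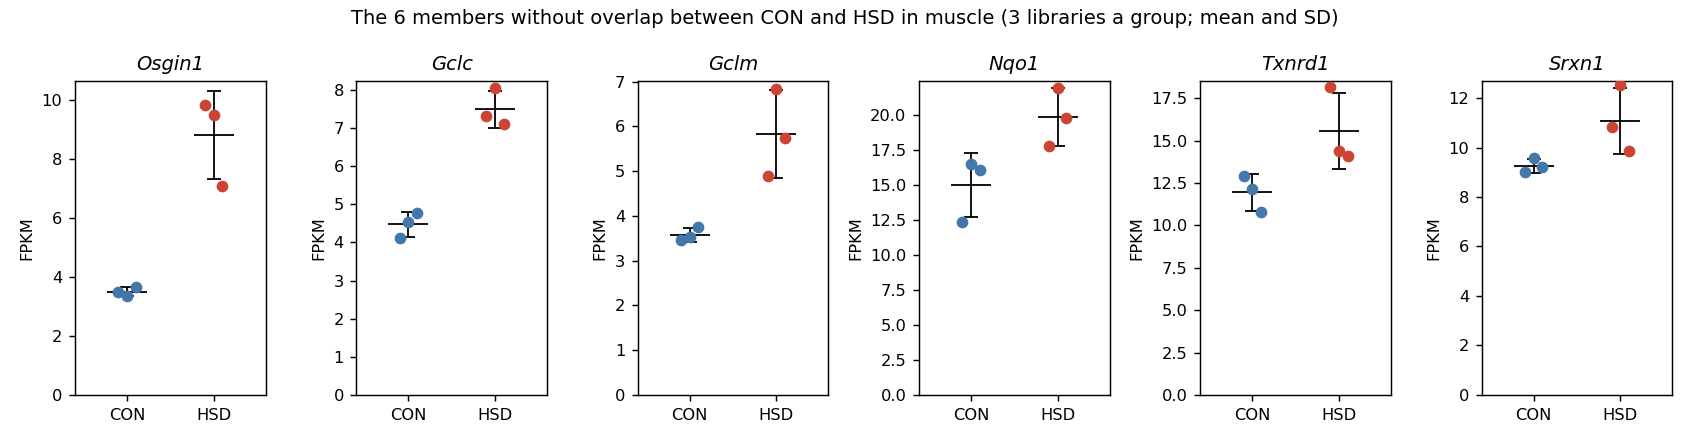
FPKM (linear axes from 0) in the 3 CON and 3 HSD muscle libraries of the 6 members whose groups do not overlap. Points are libraries and bars the mean and SD. Osgin1 goes from 3.35 to 3.64 in CON to 7.08 to 9.83 in HSD, Gclc and Gclm follow with smaller gaps, and the gaps of Nqo1, Txnrd1 and Srxn1 are narrow.

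In liver, where *Osgin1* and the glutamate-cysteine ligase genes are most abundant, no member differed past the threshold between the diets. The CON libraries had *Osgin1* at 209.5, 75.2 and 70.1 FPKM and the HSD libraries at 74.2, 63.0 and 81.9. A single CON library, CON14L, was high, and the other 5 lay close together. The log2 difference was -0.51 ± 0.50 (SE; limma, adjusted p = 0.776) and became 0.00 without CON14L.

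*Gclc* was at 61.5, 85.8 and 110.9 FPKM in CON and 139, 122 and 124 in HSD liver, and was the 1 member without overlap. Without overlap in that direction were 8.62% of all genes. Its log2 difference was 0.61 ± 0.38 (limma, adjusted p = 0.764), and with the mitochondrial genes left out and FPKM rescaled the groups overlapped and the difference was 0.24. *Gclm* was at 18.6, 44.1 and 35.6 FPKM in CON and 57.2, 69.2 and 32.2 in HSD, a difference of 0.70 ± 0.46 (adjusted p = 0.764).

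*Nfe2l2* was at 49.9, 22.1 and 36.7 FPKM in CON and 17.2, 12.4 and 37.7 in HSD liver, in the opposite direction to *Gclm*, with a log2 difference of -0.76 ± 0.50 (limma, adjusted p = 0.764). The 15 libraries of the study's own figures leave out CON16L and HS5L of liver, and over the remaining 4 the differences were -1.52 for *Nfe2l2* (adjusted p = 0.0727) and 1.27 for *Gclm* (adjusted p = 0.114). With limma's array weights *Nfe2l2* was called lower, at -1.06 (adjusted p = 0.000114), under a setting that called 926 of the 10317 genes. Among all genes tested in liver 0% were called, none of 10317. At an unadjusted p under 0.05 were 0 of the 9 members and 5.74% of all genes, and limma voom on recovered fragments also called 0. The other members (*Keap1*, *Txnrd1*, *Srxn1*, *Nqo1* and *Hmox1*) had log2 differences from -0.10 to 0.25.

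The level of several members went with the mitochondrial share of the liver libraries. The share was 60.8, 25.7 and 37.8% in CON14L, CON16L and CON72L and 16.3, 15.4 and 44.4% in HS2L, HS4L and HS5L. With the libraries in order of this share, *Nfe2l2* was higher at 5 of 5 steps, from 12.4 to 49.9 FPKM. Leaving mitochondrial genes out divides each value by the rest of the library, and so raises values more along this order. A rise at each step must therefore remain, and rescaled rises are no check on the trend. So rescaled, *Nfe2l2* went from 14.6 to 127.5 FPKM. *Gclm* was lower at 5 of 5 steps, from 69.2 to 18.6 FPKM, and with mitochondrial genes left out at 4 of 5 steps, from 81.8 to 47.4 FPKM. *Osgin1* was higher at 4 of 5 steps, with a wide gap only at CON14L. With mitochondrial genes left out *Osgin1* was higher at 5 of 5 steps, from 74.4 FPKM in HS4L to 147.3 in HS5L and 534.7 in CON14L. *Srxn1* and *Hmox1* were lower at 4 of 5 steps as deposited, whereas with mitochondrial genes left out *Srxn1* was higher at 2 steps and *Hmox1* at 4. With the share as a covariate beside diet, an alternative added after the data were seen, the diet differences were -0.03 for *Nfe2l2*, 0.08 for *Gclm* and -0.07 for *Osgin1*, nearer to 0 than without it. Those of *Nqo1* and *Srxn1* were farther from 0, at -0.68 against -0.07 and -0.42 against 0.01. *Gclc*, *Keap1*, *Nqo1* and *Txnrd1* had 2 or 3 of 5 steps upward.

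**Figure D3:**
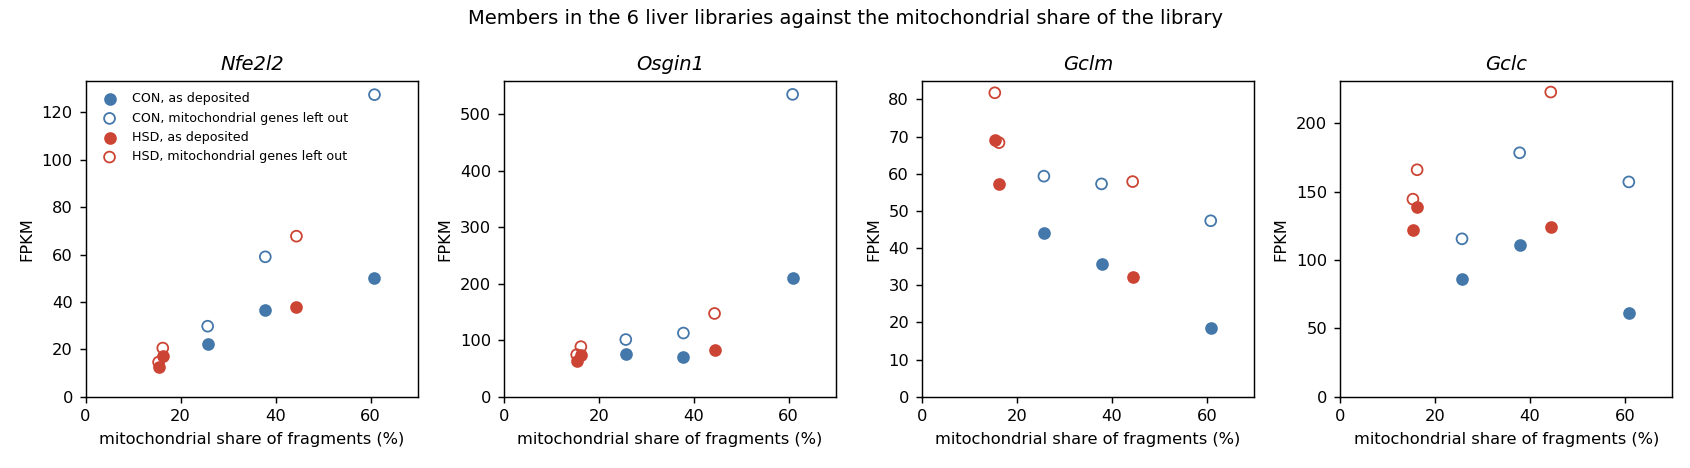
FPKM of Nfe2l2, Osgin1, Gclm and Gclc (linear axes) against the share of fragments from mitochondrially encoded genes (%) in the 6 liver libraries. Filled points are values as deposited, open points are values with mitochondrial genes left out, blue is CON and red is HSD. As deposited, Nfe2l2 climbs from 12.4 to 49.9 FPKM along the share, Gclm declines from 69.2 to 18.6, and Osgin1 is high in 1 library alone.

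In eWAT the members lay on both sides of 0 and none was called. *Gclc* was at 13.2, 12.7 and 10.9 FPKM in CON and 16.9, 24.4 and 14.4 in HSD, and *Nqo1* at 4.66, 5.10 and 5.38 against 5.94, 15.6 and 6.99. Each HSD library of both genes was above each CON library, and HS3W was the highest in both. The log2 differences were 0.55 ± 0.21 for *Gclc* (limma, adjusted p = 0.271) and 0.73 ± 0.35 for *Nqo1* (adjusted p = 0.345). Without HS3W they were 0.34 and 0.33 (adjusted p = 0.122 and 0.116).

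*Hmox1* was lower in HSD eWAT, at 25.7, 19.0 and 23.6 FPKM in CON and 16.2, 8.64 and 17.8 in HSD. The groups did not overlap, and HS3W was the lowest. The log2 difference was -0.71 ± 0.29 (limma, adjusted p = 0.297), and -0.40 without HS3W (adjusted p = 0.128). Macrophages express *Hmox1* where they take up red cells. The sum of macrophage markers moved the same way, with 591.9 to 879.3 FPKM in CON and 262.3 to 566.6 in HSD libraries. It was again lowest in HS3W. *Lyz2* alone gave 445.8 of the 879.3 FPKM, in CON16W. *Cd14* did not follow the sum, at 18.69, 11.09 and 16.03 FPKM in CON and 26.87, 9.154 and 20.96 in HSD. Of the 10 macrophage markers 9 were at 1 FPKM or more in HS3W. The library with the highest *Hmox1*, CON16W, also had the highest sum of red blood cell markers in eWAT (5667 FPKM). The parts of macrophages and of blood in the result were not tested.

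*Osgin1* in eWAT was at 4.10, 5.06 and 5.53 FPKM in CON and 7.40, 7.02 and 4.09 in HSD. HS5W was just under the lowest CON library, so the groups overlapped, and the log2 difference was 0.27 ± 0.24 (limma, adjusted p = 0.548). HS5W is the eWAT library that the study's figures leave out, and without it the difference was 0.52 (adjusted p = 0.199). *Keap1* was without overlap too, but at 10.7, 11.4 and 10.7 FPKM against 10.6, 10.3 and 10.3 the difference was -0.07.

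In *Gclm* and *Srxn1* 1 library, HS3W, lay far above the other HSD libraries of eWAT. *Gclm* was at 10.5, 8.12 and 7.98 FPKM in CON and 7.57, 26.2 and 7.67 in HSD eWAT, and *Srxn1* at 13.3, 14.8 and 14.5 against 9.85, 23.2 and 12.1. With HS3W the log2 differences were 0.37 and -0.01, and without it -0.20 and -0.36 (limma, adjusted p = 0.378 and 0.0954), with both HSD libraries below all CON libraries in either gene. *Txnrd1* was 0.24 higher and *Nfe2l2* 0.03 lower with all libraries. Among all 13740 genes tested in eWAT 0% were called. At an unadjusted p under 0.05 were 2 of the 9 members (*Gclc* and *Hmox1*) and 16.7% of all genes, and limma voom on recovered fragments called 0. Without overlap were 2 members higher (16.2% of all genes) and 2 lower (12.4%), and 5 of the 9 had a difference above 0 (59.1%).

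The diet effect was compared between eWAT and liver by an interaction term, and 0 of the 9 members and 0 of 13252 genes (0%) were called with limma. At an unadjusted p under 0.05 were 8.71% of the genes. The differences, eWAT minus liver, ran from -0.61 for *Hmox1* to 0.80 for *Nqo1*, with adjusted p of 0.655 and 0.687. That of *Osgin1* was 0.78 (adjusted p = 0.656). With limma's array weights *Nfe2l2* was called, at 1.10 (adjusted p = 0.000451), among 1714 genes called. Muscle was not in this test, because the members were chosen on it.

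**Figure D4:**
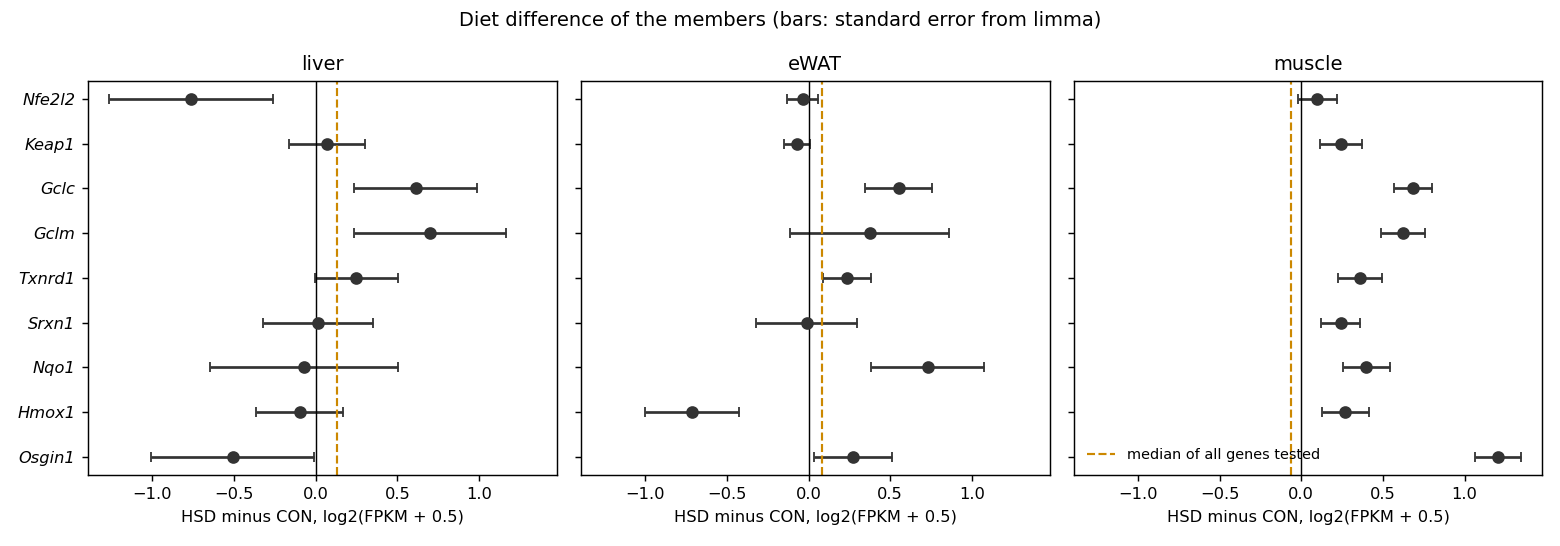
Difference of HSD from CON on the log2(FPKM + 0.5) scale for the 9 members that passed the filter, in liver, eWAT and muscle. Points are limma estimates with their standard errors, the solid line is 0 and the dashed line the median of all genes tested. In muscle all 9 lie above 0, up to 1.21 for Osgin1, whereas in liver and eWAT they lie on both sides.

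The members varied together in part. With the mean of each tissue removed, Pearson's r over the 18 libraries was 0.84 between *Gclm* and *Srxn1*, 0.80 between *Gclc* and *Gclm*, 0.73 between *Gclm* and *Txnrd1* and 0.72 between *Srxn1* and *Nqo1*. The values include HS3W, the highest eWAT library of each of these genes. They also include CON14L, the lowest liver library of *Gclc*, *Gclm*, *Srxn1* and *Nqo1*. Values for these pairs without HS3W and CON14L were not computed. *Osgin1* was apart from these genes over all tissues, with r from -0.19 (*Hmox1*) to 0.46 (*Nfe2l2*), and *Nfe2l2* had r of -0.63 with *Gclm* and -0.56 with *Srxn1*. Within the 6 muscle libraries r with *Osgin1* was 0.97 for *Gclc* and 0.89 for *Gclm*. Diet was not removed, so genes that part by diet in the same direction have a high r, and nothing is read from the muscle values. Within the eWAT libraries r was 0.60 and 0.38, and within the 6 liver libraries it was -0.83 and -0.86. Without CON14L the liver values were -0.06 and -0.71. These values describe libraries that share mice, depth and the same diet groups.

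By the same measure the 5 genes most like *Osgin1*, of 9000 with a mean of at least 0.5 FPKM in each tissue, were *Arih1* (r = 0.86), *Crebbp* (0.84), *Thoc2l* (0.83), *Ints6* (0.83) and *Mss51* (0.80). *Mss51*, a gene of skeletal muscle, was at 30.6, 28.2 and 32.1 FPKM in CON muscle and 69.1, 67.8 and 64.6 in HSD muscle, and at 4.38 FPKM or less in the other tissues. *Arih1*, a ubiquitin ligase, was at 22.6, 20.4 and 19.8 FPKM in CON and 30.9, 26.5 and 24.9 in HSD muscle. *Crebbp*, *Thoc2l* and *Ints6* had r of 0.85 to 0.97 with *Osgin1* in muscle, again with diet not removed. In liver r was 0.92, 0.90 and 0.88 for these 3 genes, and 0.66, 0.57 and -0.60 without CON14L, the library where each of them and *Osgin1* was highest.

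A list of 59 other genes of the pathway was described in the same way, in 8 groups. With limma 0 of 53 genes tested in liver, 0 of 53 in eWAT and 0 of 48 in muscle were called, where 0%, 0% and 0.323% of all genes were. At an unadjusted p under 0.05 were 2, 13 and 12 of them and 5.74%, 16.7% and 16.3% of all genes.

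The clearest group was the NADPH supply of eWAT. The enzymes of *G6pdx*, *Pgd*, *Me1* and *Idh1* make NADPH, which feeds glutathione and thioredoxin reductases and fatty acid synthesis. Those of *Tkt* and *Taldo1* belong to the pentose phosphate pathway but do not make NADPH themselves. All 6 (*G6pdx*, *Pgd*, *Tkt*, *Taldo1*, *Me1* and *Idh1*) were lower in HSD eWAT without overlap, where 12.4% of all genes were, with a median log2 difference of -0.89. *Me1*, malic enzyme, was at 127.3, 173.6 and 186.1 FPKM in CON and 64.8, 28.1 and 69.0 in HSD. *Tkt*, the transketolase of the pentose phosphate pathway, was at 98.2, 115.3 and 127.9 FPKM against 38.2, 33.2 and 49.4. The log2 differences were -1.67 and -1.50 (limma, adjusted p = 0.153 and 0.0905). Without HS3W they were -1.25 and -1.37 and were called (adjusted p = 0.0243 and 0.0227), as was *Pgd* at -1.12 (adjusted p = 0.0244), among 160 of the 13245 genes tested there. In liver and in muscle 5 of these 6 genes had a difference under 0, where 62.7% and 39.2% of all genes were above 0. Their medians were -0.27 and -0.11, against 0.13 and -0.06 for all genes. In liver *Pgd* was without overlap, at -0.63 (adjusted p = 0.764), and in muscle at -0.24 (a description).

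Heme and iron genes lay on the same side as *Hmox1* in eWAT. All 7 had a log2 difference under 0, with a median of -0.38, where 59.1% of all genes were above 0. Lower without overlap were 3 (12.4% of all genes), *Blvra* and *Blvrb* (biliverdin reductases, the step after heme oxygenase) and *Slc48a1* (a heme transporter). *Blvra* was at 13.3, 14.4 and 11.8 FPKM in CON and 7.97, 7.38 and 9.25 in HSD eWAT, a log2 difference of -0.66 (limma, adjusted p = 0.127). *Fth1* and *Ftl1*, the ferritin chains, overlapped. Without HS3W 5 of the 7 were under 0, with a median of -0.22, and *Fth1* and *Slc40a1* were at 0.10 and 0.01. The sum of macrophage markers given above, though not *Cd14*, was lower in the same libraries. The parts of macrophages and of blood, whose markers were high in CON16W, were not tested for this group. In liver, all 7 had a difference above 0, with a median of 0.36, where 62.7% of all genes were above 0, and 2 were higher without overlap (8.62% of all genes). Without CON14L 4 of the 7 were above 0 (median 0.20), and with mitochondrial genes left out 4 of 7 (0.01).

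Among the other groups of eWAT, *Mafg*, a small MAF partner of NRF2, was higher at 16, 18.1 and 17.4 FPKM against 24.0, 25.9 and 21.2 (log2 difference 0.45, limma adjusted p = 0.160). *Cbr1* and *Entpd5* were higher without overlap, at 0.51 and 0.23. *Cyp2a5*, a cytochrome P450 with a near-identical neighbour gene that can share its reads, was at 0.78 to 1.11 FPKM in CON and 0.0354 to 0.0392 in HSD. The HSD values rest on very few fragments, so their narrow range is not a measured level. *Cyp2a5* is abundant in liver (124 FPKM in CON), and the hepatocyte markers of the eWAT libraries moved with it. Their sum was 93.4 to 273.4 FPKM in CON and 6.31 to 15.4 in HSD. Their part in the result was not tested.

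In muscle the group of NRF2 partners and degradation had 9 of 12 genes above 0 (39.2% of all genes) and 6 higher without overlap (6.72%), again a description. *Bach1*, a repressor at antioxidant response elements, was at 5.83, 5.94 and 4.78 FPKM in CON and 9.67, 7.91 and 6.26 in HSD (log2 difference 0.48). *Sqstm1*, the autophagy receptor p62 that binds KEAP1, was at 174.8, 179.4 and 174.1 FPKM against 238.1, 245.1 and 220.7 (0.41), and *Mafg* was at 14, 12.4 and 12.8 against 20.9, 15.3 and 16.2 (0.39). *Gss*, glutathione synthetase, went the other way to *Gclc* and *Gclm*, at 3.32, 3.55 and 3.25 FPKM in CON and 2.10, 1.73 and 2.38 in HSD (-0.60), and *Ugdh* was at -0.21. The median of the 48 genes was 0.00, and that of all genes -0.06.

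In liver 38 of the 53 genes were above 0, where 62.7% of all genes were, with a median of 0.31 against 0.13 for all genes. This did not hold without CON14L (25 of 53, median -0.01), with mitochondrial genes left out (24 of 56, -0.06) or with the mitochondrial share as a covariate (22 of 53, -0.13). *Maff*, a small MAF protein, had the largest difference without overlap, 1.08, at 0.0505 to 1.26 FPKM in CON and 1.263 to 3.0 in HSD (limma, adjusted p = 0.764). Its groups barely parted, and the value of 0.0505 FPKM was that of CON14L. *Gsta3*, a glutathione transferase, and *Abcc3*, an efflux pump for conjugates, were at 0.73 and 0.68 (adjusted p = 0.764 for both). *Gsta3* was at 48.0 to 104.6 FPKM in CON and 105.9 to 152.3 in HSD libraries, so the groups barely parted.

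**Figure D5:**
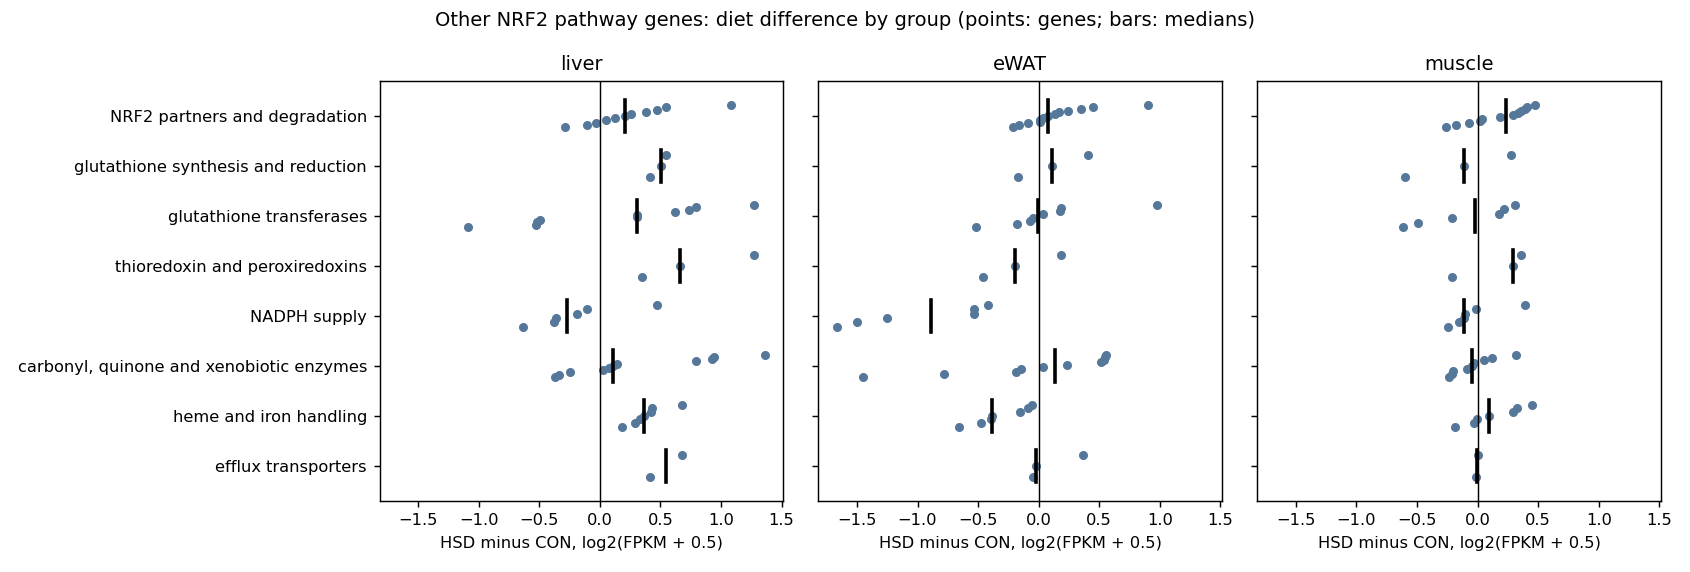
Difference of HSD from CON on the log2(FPKM + 0.5) scale for the other pathway genes, by group and tissue. Each point is a gene and each bar the median of its group. The NADPH supply of eWAT lies wholly below 0, with a median of -0.89, and heme and iron genes lie below 0 in eWAT (median -0.38, and -0.22 without HS3W).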

How the data were processed

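Deposited FPKM of 18 libraries were used. Per the labels and methods, the authors depleted rRNA, made stranded libraries, used cutadapt for trimming, hisat2 for alignment to mm10, and cuffdiff with an Ensembl annotation (release not stated) for the FPKM. The submitters' processing notes also name HTSeq 0.9.1. How strand was used in counting is not stated, so *Gclm*, *Txnrd1*, *Keap1* and *Slc7a11*, which overlap antisense genes, are uncertain to that extent. Fragments per gene were recovered from FPKM and exon lengths of GENCODE M21, and 18346 of 18822 genes gave whole numbers, within 0.05, in all libraries. With 1 to 7 fragments a value is imprecise.

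The test was limma 3.58.1 (R 4.3.3) with log2(FPKM + 0.5) as input, restricted to genes whose mean reached 0.5 FPKM, per tissue with diet as the term, or over the 9 CON libraries with tissue as the term. Fold changes on this scale understate low genes. A call needed a Benjamini-Hochberg adjusted p under 0.05 over all genes tested and a log2 fold change of at least 1. All libraries of a tissue were used. DESeq2, which the authors used, was not run, although fragments were recovered for most genes. With it the paper reports differentially expressed genes in liver and eWAT at these thresholds, where limma called 0% here. The fit was tested on simulated data.

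Alternatives were pseudocounts of 0.1 and 1, no filter or a mean of 1 FPKM, median-ratio scaling, quantile normalization, mitochondrial genes left out, array weights, all tissues in 1 fit, limma voom on recovered fragments, blocks by replicate number or mouse, adjusted p alone, the study's libraries, the 9 HSD libraries for the tissue contrasts, and each library left out. The members and lists were chosen with earlier results of these data known. Pathway genes named are the 3 largest rises and falls without overlap per tissue. *G6pdx*, *Taldo1*, *Idh1* and the heme and iron genes were named after their values were seen. In muscle, deviations of CON and HSD libraries of the same replicate number had r of 0.383, 0.177 and 0.184. Those of different numbers had r from -0.347 to 0.18, so no pairing is shown.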

Additional observations from a re-analysis of the deposited data

How the results depend on the processing

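Of the members, 4 were called between eWAT and liver of CON mice, and 7 with adjusted p alone (leaving out 1 library, 4 to 7, the 7 without CON16L). Between muscle and liver 5 were called (5 to 6). Between eWAT and muscle 5 were called, 3 with median-ratio scaling, 2 with quantile normalization and 4 to 5 without 1 library. *Txnrd1* turned from 0.36 to -1.23 between eWAT and liver with median-ratio scaling. In each fit with array weights the estimate of the weights stopped before it converged. Of the diet comparisons, array weights gave 1 member in liver and 1 in the interaction (both *Nfe2l2*) in place of 0, and 9 pathway genes in liver in place of 0. In muscle the choice of the members had fixed the call of *Osgin1*, so the counts there are a description and not support. The 1 member called became 2 with adjusted p alone, 0 with all tissues in 1 fit and 0 with no filter. Without 1 library it was 0 to 1 (0 without CON72M), while the log2 difference of *Osgin1* stayed between 1.09 and 1.35. In eWAT 0 pathway genes became 4 with all tissues in 1 fit, 4 with array weights and 0 to 4 without 1 library. The 4 were *Me1*, *Tkt*, *Pgd* and *Cyp2a5* each time, and the library was HS3W. With the replicate number as a block, 1 member was called in muscle and 0 in liver, in eWAT and in the interaction, so the block changed no count. The same-number correlations were -0.473, 0.395 and -0.213 in liver and -0.197, 0.061 and 0.414 in eWAT, so no pairing is shown there either. With the mouse as a block, 4, 5 and 5 members were called between tissues. For causes not stated above, the cause was not tested. With 3 libraries a group, p-values measure the spread of these mice.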
